A study of Mus musculus with 11 samples.

Results

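The small leucine-rich proteoglycans are secreted matrix proteins, and 9 of their genes, Dcn, Lum, Fmod, Bgn, Ogn, Omd, Prelp, Aspn and Podn, were followed by gene symbol among the 37991 genes of the count table. Each symbol had a single row, and all 9 genes passed the filter on low counts in both fits. RNA was sequenced from 11 libraries of mouse spinal cord. Sorted libraries held GFP-positive cells, collected by flow cytometry from dissociated cords of C57BL/6 Col1a1GFP mice, in which green fluorescent protein reports the collagen I gene Col1a1. The 3 sorted control libraries are from mice in health. Another 3 are from mice 5 days (D5) and a further 3 from mice 10 days (D10) after onset of symptoms of EAE, experimental autoimmune encephalomyelitis, in which immune attack on myelin serves to model multiple sclerosis. All sorted groups, the control included, carry the reporter, and each of their libraries pools 2 to 3 cords that the design text calls biological replicates. The 2 whole cord libraries (replicates 1 and 3) come from healthy C57BL/6 mice and hold the homogenate of 1 cord each. Their labels repeat the sorting protocol, and the design text, which describes unsorted homogenate, was followed. Not given in the sources used here are the agent that induced EAE, the age and sex of the mice and the promoter fragment of the reporter. A sort on collagen I activity takes in any cell that uses that promoter, so a pool can hold several kinds of collagen-making cell.

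Proteins of this family share a curved core of leucine-rich repeats that lies along collagen fibrils, and many carry sulphated sugar chains. On the fibril they regulate its width and spacing, and several bind growth factors of the TGF-beta family and so limit or shape their action. Released from the matrix, some act as signals to receptors of immune cells. In the nervous system they are known from the meninges and the sheaths of blood vessels and nerves, where fibroblasts make collagen.

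The family's transcripts were abundant in the healthy sorted cells and sparse in whole cord, and after EAE onset most of them fell while 1 rose. Their summed level was 10640 ± 284 CPM in healthy sorted cells, 6400 ± 1006 CPM at D5 and 6971 ± 394 CPM at D10 (mean ± SD). It was 104 ± 41.3 CPM in whole cord. CPM are counts scaled to library size with TMM factors, apart for each fit. The whole cord sum is on the scale of the fit with whole cord, the others on that of the sorted groups. At D5, 7 of the 9 genes were lower than in sorted control, Bgn alone was higher, and Aspn did not pass the test. At D10, 6 were lower, Bgn was again higher, and Lum and Omd did not pass. Among all tested genes, 10.7% were called lower and 13.2% higher at D5, and 4.99% and 8.38% at D10. Fmod fell most at D5, from 997 ± 218 to 121 ± 47.0 CPM, and stood at 357 ± 142 CPM at D10.

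Library totals ran from 7123291 to 12238751 counts. The genes held 1.08% ± 0.0225 of all counts in healthy sorted cells, 0.646% ± 0.0875 at D5 and 0.677% ± 0.0528 at D10, against 0.00927% ± 0.00357 in whole cord (SD). All 12 fibroblast markers had counts, with summed levels of 21166 to 27293 CPM in sorted control and 526 to 630 CPM in whole cord. The 10 leptomeningeal markers summed to 1558 to 1611 CPM in sorted control against 41.0 to 60.5 CPM in whole cord. Neuronal markers summed to 7.47 to 25.5 CPM and oligodendrocyte markers to 73.7 to 111 CPM in sorted control, with Slc32a1 and Opalin at 0, against at least 7451 and 16949 CPM in whole cord. Mural cell markers (smooth muscle and pericyte genes), which a sort on collagen I activity can take in, all had counts and summed to 3060 to 6039 CPM in sorted control.

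In the mouse genome the 9 genes lie on 5 chromosomes, and several are neighbours. Dcn is followed by Lum and the corneal family gene Kera on chromosome 10, and Prelp and Fmod lie next to each other on chromosome 1. Aspn, Omd and Ogn follow the related gene Ecm2 on chromosome 13, within the span of Cenpp on the opposite strand. Bgn lies on the X chromosome and Podn on chromosome 4. The strand setting of the counting is not stated, so reads of Aspn and Cenpp, whose exons overlap, cannot be told apart, nor can those of Prelp and the antisense gene Gm15851. Cenpp held 6 to 28 counts per library and Gm15851 0 to 4, against at least 1226 counts of Prelp and 32 of Aspn in any sorted library. In whole cord, Aspn had 7 and 10 counts against 15 and 26 of Cenpp.

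RefSeq promoter sequence on GRCm38.p6 was at hand for 7 of the genes, and 5 are shown. Bgn is shown as the gene that rose, Fmod and Prelp as neighbours with large falls, Podn for its fall at both times. Aspn is shown as the gene that did not pass the test at D5. Each run is the 250 bases before the transcription start, 5′ to 3′ on the gene's strand, with GC boxes (GGGCGG) and TATA box letters (TATAAA) in capitals on either strand. Coordinates are chrX:73483351-73483600 (plus strand) for Bgn, chr1:134037004-134037253 (plus) for Fmod, chr1:133921402-133921651 (minus) for Prelp, chr4:108031955-108032204 (minus, the first of 2 windows) for Podn and chr13:49544193-49544442 (plus) for Aspn.
Bgn: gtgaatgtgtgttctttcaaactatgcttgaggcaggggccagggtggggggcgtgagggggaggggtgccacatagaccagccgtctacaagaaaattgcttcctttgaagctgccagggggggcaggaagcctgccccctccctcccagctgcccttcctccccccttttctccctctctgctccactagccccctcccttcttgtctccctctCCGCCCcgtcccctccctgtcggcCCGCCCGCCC
Fmod: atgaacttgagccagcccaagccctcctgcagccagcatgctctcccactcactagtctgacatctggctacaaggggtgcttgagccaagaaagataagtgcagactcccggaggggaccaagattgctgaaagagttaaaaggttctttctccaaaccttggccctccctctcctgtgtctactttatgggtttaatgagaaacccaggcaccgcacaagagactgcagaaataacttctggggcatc
Prelp: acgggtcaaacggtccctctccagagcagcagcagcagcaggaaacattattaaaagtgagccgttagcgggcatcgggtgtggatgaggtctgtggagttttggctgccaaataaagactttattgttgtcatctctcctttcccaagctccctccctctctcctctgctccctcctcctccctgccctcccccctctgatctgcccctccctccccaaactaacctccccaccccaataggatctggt
Podn: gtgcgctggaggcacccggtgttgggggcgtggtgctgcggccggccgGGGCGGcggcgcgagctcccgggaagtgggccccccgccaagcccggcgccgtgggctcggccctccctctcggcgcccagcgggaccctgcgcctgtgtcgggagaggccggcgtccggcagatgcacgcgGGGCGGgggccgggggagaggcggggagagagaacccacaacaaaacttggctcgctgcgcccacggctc
Aspn: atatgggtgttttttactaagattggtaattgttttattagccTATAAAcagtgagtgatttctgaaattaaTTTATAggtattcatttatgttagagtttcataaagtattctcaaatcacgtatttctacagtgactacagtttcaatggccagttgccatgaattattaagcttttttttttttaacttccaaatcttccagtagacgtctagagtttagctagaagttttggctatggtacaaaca

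Bgn and this window of Podn were rich in G and C (64.4% and 78.0%), Aspn was poor in them (30.0%), and Fmod and Prelp lay close to the median of 52.4% over 32851 promoters (51.2% and 55.6%). GC box letters stood in the windows of Bgn and Podn and in 32.7% of all promoters, some overlapping one another in Bgn. TATA box letters stood in those of Aspn and Ogn and in 12.4% of all. On either strand, none of the 8 windows of these genes held the letters searched for AP-1 (TGANTCA), NF-kB (GGGA, any NN, then TTCC), STAT (TTCNNNGAA), interferon response (TTTC, any NN, then TTTC) or SMAD (GTCTAGAC). Of all promoters, 6.75%, 1.21%, 7.02%, 2.98% and 0.167% held these motifs, in the same order. A match describes letters only, and a missing match says that they are not in this window.

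In healthy sorted cells the levels were ordered per exon length, in CPM per kilobase of annotated exon (GENCODE, GRCm38). The length was the union of all annotated exons of a gene, such as 5838 bases for Dcn, 6099 for Bgn and 2448 for Lum. This union can be longer than any single transcript, which sets a gene lower. The order between genes and their shares depend on this choice of length. Dcn, the founding member of the family, stood at 1128 ± 98.3 CPM per kb (SD, n = 3), which was rank 15 among 15416 tested genes with a known length. Fmod (302 ± 66.0), Lum (293 ± 34.8) and Prelp (260 ± 9.20) followed on that scale, and these 3 overlapped library by library. Bgn (144 ± 17), Ogn (92.6 ± 8.44), Podn (56.6 ± 3.38), Aspn (9.65 ± 1.97) and Omd (6.25 ± 0.418 CPM per kb) came next, each below the one before in every library. At D5 the order was Dcn (543 ± 121), Bgn (368 ± 51.7) and Lum (192 ± 42.7 CPM per kb), none overlapping. By these exon lengths Bgn moved from the fifth place to the second, and its place could differ with another choice of length. After Lum came Prelp, Fmod and Ogn, with Fmod overlapping each of its neighbours, then Podn. Aspn and Omd overlapped at the low end. At D10 the order was Dcn (585 ± 133), Bgn (317 ± 106) and Lum (261 ± 14.1 CPM per kb), where Bgn and Lum overlapped, as did Prelp with Fmod, Fmod with Ogn, and Omd with Aspn.

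The make-up of the family changed with these shifts. Of the summed CPM per kb of the 9 genes, Dcn made up 49.2% ± 4.34 in sorted control, 42.9% ± 2.95 at D5 and 39.9% ± 6.34 at D10 (SD). Bgn made up 6.29% ± 0.732, then 29.5% ± 4.31 and 22.2% ± 8.72. Fmod made up 13.2% ± 2.92, then 2.98% ± 1.39 and 7.30% ± 2.58, and Prelp 11.4% ± 0.519, then 5.18% ± 1.43 and 7.92% ± 2.51. The share of Lum was 12.8% ± 1.22, then 15.2% ± 1.76 and 18% ± 1.73. A share can rise without a rise in level: Lum itself was lower at D5 (log2 -0.61) and did not pass the test at D10 (-0.17).

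**Figure D1:**
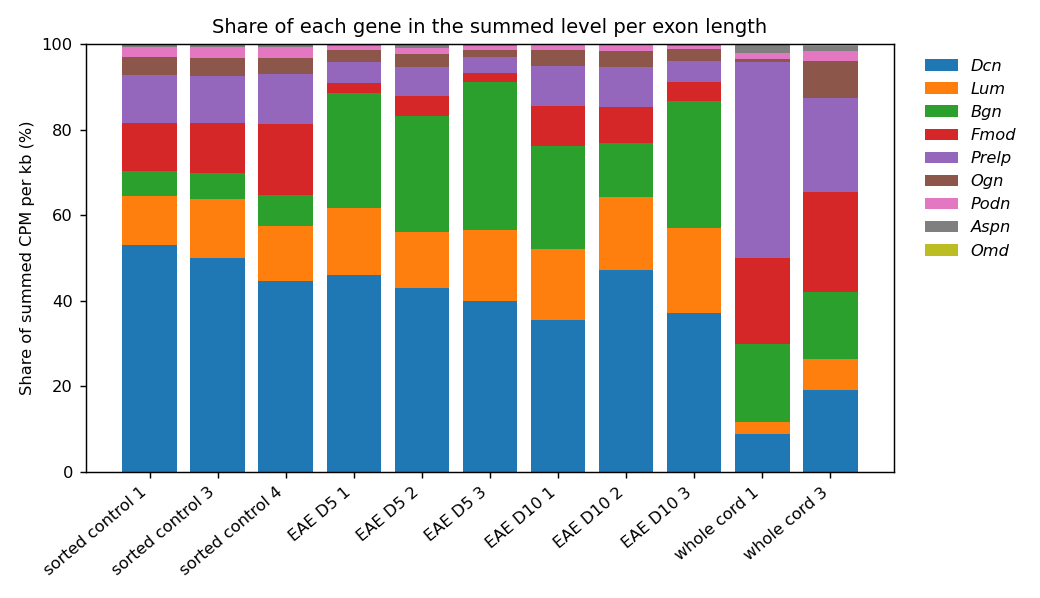
Stacked bars show, for each of the 11 libraries (x axis), the share of each gene in the summed CPM per kb of exon of the 9 genes (y axis, percent). The Bgn part averages 6.29% in the 3 sorted control libraries and 29.5% in the 3 D5 libraries. In both whole cord libraries Prelp takes a larger part than Dcn. The parts depend on the exon lengths used.

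Sorted control was first set against whole cord, which asks how far these transcripts mark the reporter cells. Of the 9 genes, all were higher in sorted cells with every sorted library above both whole cord libraries, where 26.9% of the 16562 genes tested were called higher and 36.0% had groups that did not overlap in that direction (edgeR quasi-likelihood test, adjusted p under 0.05). The median log2 difference of the 9 was 5.81 and that of all tested genes 0.04. Similar lists did the same: 12 of 12 collagen chains were higher (median 6.11), 10 of 10 leptomeningeal markers (5.01) and 11 of 12 fibroblast markers (5.51). Sorted and whole cord libraries also differ in dissociation, sorting, pooling and the reporter, which cannot be told apart here. In bulk samples, fewer cells of a type and less RNA per cell cannot be told apart. Low counts of these genes limit the whole cord side, where counts per gene and library ran as low as 0. The library totals there were 9091545 and 12238751 counts.

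**Figure D2:**
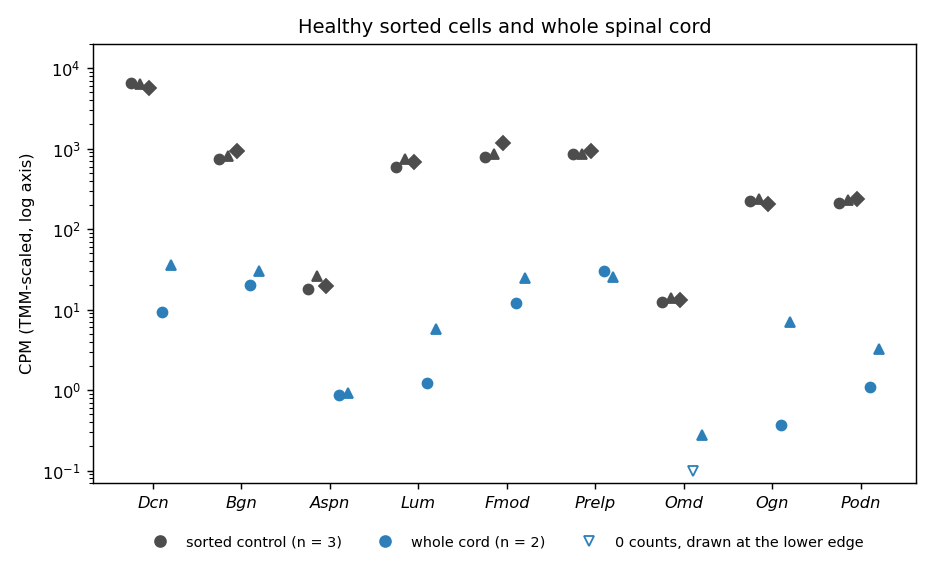
Each point is 1 library, with CPM on a log axis against gene, for 3 sorted control libraries (grey) and 2 whole cord libraries (blue). The open triangle is Omd at 0 counts, drawn at the lower edge. Every grey point lies above every blue point of its gene, while whole cord replicate 3 lies above replicate 1 for all genes but Prelp.

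Prelp, which binds heparan sulphate and is thought to anchor basement membranes to connective tissue, stood at 865, 860 and 926 CPM in sorted control and at 30.1 and 25.6 CPM in whole cord. These CPM are scaled in the fit with whole cord, so control values differ from those given beside D5 and D10. Its log2 difference was 4.99 ± 0.16 (SE, adjusted p = 1.31e-06), and by the mean of the 2 whole cord libraries it was the most abundant of the 9 there per exon length (7.70 CPM per kb), although in replicate 3 Fmod (7.48) lay above it (7.07). Bgn held 20.1 and 30.3 CPM in whole cord (log2 difference 5.03 ± 0.24, adjusted p = 4.2e-06). Fmod held 12 and 24.7 CPM (5.66 ± 0.38, adjusted p = 1.67e-05, and 6.25 without whole cord replicate 3). Dcn stood at 9.45 and 35.8 CPM there. By mean share of the family's CPM per kb in whole cord, Prelp (34.0%), Fmod (21.7%) and Bgn (16.8%) came before Dcn (14.05%), but in replicate 3 Dcn (19.2%) was above Bgn (15.5%). These orders depend on the exon lengths used. Without division by length, the whole cord means were 27.8 CPM for Prelp, 25.2 for Bgn and 22.6 for Dcn. In replicate 3, Dcn (35.8 CPM) was then above Prelp (25.6 CPM).
The 2 whole cord libraries were far apart for several genes. Lum stood at 1.23 and 5.74 CPM and Podn at 1.10 and 3.24 CPM, and the log2 difference of Podn was 6.63 ± 0.35 (adjusted p = 5.55e-06), or 7.63 without whole cord replicate 3. Dcn gave 8.07, or 7.40 without replicate 1 and 9.32 without replicate 3, and Lum gave 7.52, or 6.84 and 9.05 in the same order. Ogn had 3 counts in replicate 1 (0.368 CPM) and stood at 7.04 CPM in replicate 3, and its log2 difference of 5.81 ± 0.69 (adjusted p = 0.000287) became 4.95 without replicate 1 and 9.16 without replicate 3. Omd had 3 whole cord counts in all against 399 in sorted control, a ratio of 83.6 per scaled library size with a 95% counting interval of 28.4 to 407, which covers counting error only. Aspn had 17 whole cord counts, with 0.859 and 0.926 CPM, and a log2 difference of 4.55 ± 0.36 (adjusted p = 3.29e-05), the lowest among the 9, and there Cenpp held more counts than Aspn in both libraries.

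D5 and D10 were each compared with the same 3 sorted control libraries in 1 fit of 9 libraries, which asks how the reporter cells differ in EAE. The 2 comparisons share their controls, so that their values stand side by side and neither repeats the other. At D5 the median log2 change of the 9 genes was -1.27 and that of all tested genes 0.00, and at D10 it was -1.06 against 0.01. At D5, 23.9% of the 15972 tested genes were called (13.2% higher and 10.7% lower), and groups did not overlap for 41.9% of them. At D10, 13.4% were called (8.38% higher and 4.99% lower), and 31.1% did not overlap. Against these figures stand 8 of the 9 genes called at D5 and 7 at D10, with no overlap for 9 genes at D5 and 8 at D10.

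**Figure D3:**
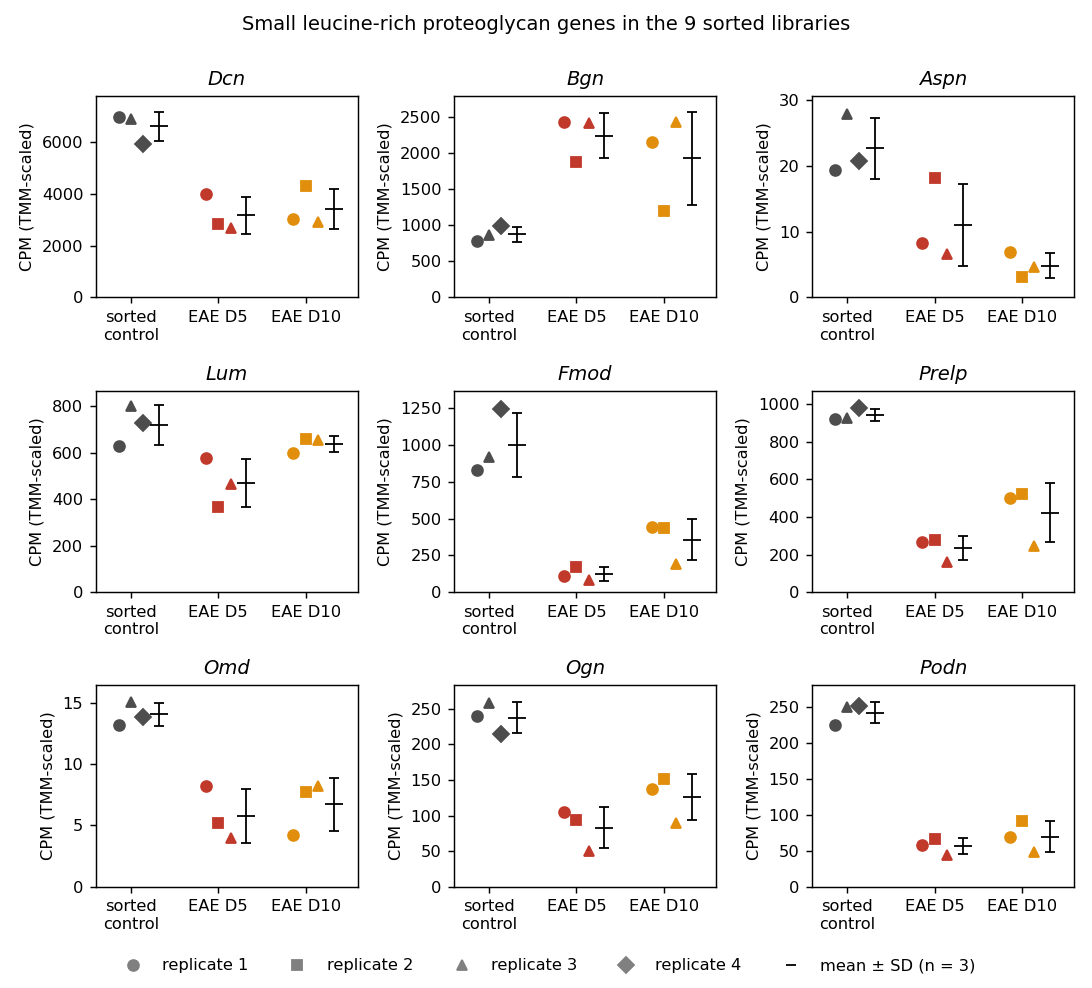
TMM-scaled CPM (y axis, from 0, own scale per gene) of the 9 genes in each sorted library, by group (x axis). Marker shape gives the replicate number, and the bar is the mean ± SD of 3 libraries. Bgn is the one gene whose EAE libraries all lie above sorted control, and Lum at D10 is the one case where an EAE group overlaps it.

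In the decorin class, Dcn and Bgn moved in opposite directions. Dcn, which coats collagen fibrils and binds TGF-beta, stood at 6954, 6881 and 5925 CPM in sorted control, at 3986, 2844 and 2687 CPM at D5 and at 3021, 4307 and 2913 CPM at D10. All EAE libraries lay below all controls, and the highest was D10 replicate 2. The log2 change was -1.05 ± 0.19 at D5 (adjusted p = 0.00216) and -0.95 ± 0.19 at D10 (adjusted p = 0.00731). The D10 call was lost when whole cord was added to the fit (adjusted p = 0.0776).
Bgn, the closest relative of decorin, is known as a danger signal to Toll-like receptors of macrophages when it is set free. It stood at 785, 865 and 990 CPM in sorted control, at 2437, 1882 and 2419 CPM at D5 and at 2153, 1204 and 2437 CPM at D10. All EAE libraries lay above all controls, and D10 replicate 2 was the nearest to them. Bgn rose 2.55-fold at D5 (log2 1.35 ± 0.23, adjusted p = 0.00127) and 2.19-fold at D10 (log2 1.13 ± 0.23, adjusted p = 0.00657). The ratio of Dcn to Bgn CPM was 8.86, 7.95 and 5.98 in sorted control, 1.64, 1.51 and 1.11 at D5, and 1.40, 3.58 and 1.20 at D10. The ratio was thus lower in every EAE library than in any control, with D10 replicate 2 the highest of the EAE libraries.

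Aspn, which competes with decorin for collagen and restrains TGF-beta in cartilage, was not called at D5 and was called lower at D10. It stood at 19.4, 28 and 20.8 CPM in sorted control, at 8.22, 18.1 and 6.58 CPM at D5 and at 6.91, 3.08 and 4.58 CPM at D10. D5 replicate 2 lay just below the lowest control, and all D10 libraries lay well under the controls. The log2 change was -1.05 ± 0.38 at D5 (adjusted p = 0.0646, not called) and -2.23 ± 0.40 at D10 (adjusted p = 0.00396). Between D10 and D5, whose libraries overlapped, it was -1.18 ± 0.40 (edgeR, adjusted p = 0.427, not called). Without D5 replicate 2 the D5 value was -1.60 (adjusted p = 0.0105), and DESeq2, limma voom and the edgeR fit with no filter also called it (adjusted p 0.0347, 0.0216 and 0.0199).
The summed level of the 12 mural cell markers moved with Aspn. It was 3060, 6039 and 3842 CPM in sorted control, 2311, 4143 and 2310 CPM at D5 and 2062, 1008 and 1445 CPM at D10. In all 9 libraries the rank of Aspn within its group was the rank of the mural sum, although D5 replicates 1 and 3 had nearly equal sums. At D10, 7 of the 12 markers were lower than in sorted control and none higher, and at D5, 3 were lower and 2 higher. The shares of all tested genes were 4.99% lower and 8.38% higher at D10, and 10.7% lower and 13.2% higher at D5. Per 1000 CPM of mural markers, Aspn stood at 5.46 ± 0.846 CPM in sorted control, 3.59 ± 0.764 at D5 and 3.19 ± 0.150 at D10 (SD, n = 3). The part of mural cells in the Aspn result was not tested.

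**Figure D4:**
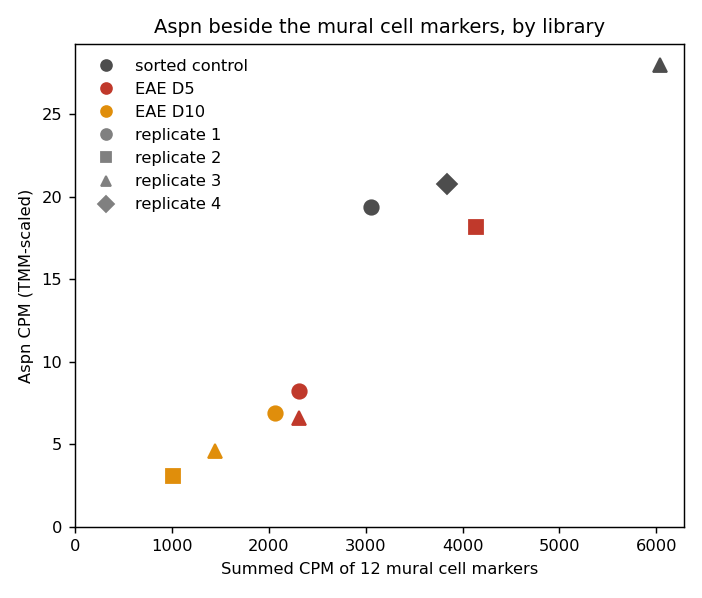
Aspn CPM (y axis) against the summed CPM of 12 mural cell markers (x axis) in the 9 sorted libraries, coloured by group and shaped by replicate number. Control libraries lie at the upper right (mural sums of 3060 to 6039 CPM), D10 libraries at the lower left (1008 to 2062 CPM), and D5 replicate 2, at 18.1 CPM of Aspn, lies near the controls.

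In the fibromodulin class all 4 genes were lower at D5. Fmod, which guides the maturation of collagen fibrils in tendon, stood at 833, 915 and 1245 CPM in sorted control, at 112, 172 and 79.4 CPM at D5 and at 443, 434 and 193 CPM at D10. The 3 groups did not overlap, and D10 replicate 3 was the D10 library closest to D5. Fmod fell 8.25-fold at D5 (log2 -3.04 ± 0.34, adjusted p = 0.000118) and 2.80-fold at D10 (log2 -1.48 ± 0.32, adjusted p = 0.0101).
Prelp stood at 919, 924 and 979 CPM in sorted control, at 266, 276 and 161 CPM at D5 and at 502, 522 and 244 CPM at D10. Both EAE groups lay below the controls, and D10 replicate 3 lay among the D5 libraries. The log2 change was -2.0 ± 0.27 at D5 (adjusted p = 0.000326) and -1.15 ± 0.26 at D10 (adjusted p = 0.0134). The ratio of Prelp to Fmod was 2.38, 1.60 and 2.03 at D5 and 0.786 to 1.10 in sorted control.
Lum, known for keeping corneal fibrils evenly spaced, stood at 629, 799 and 727 CPM in sorted control, at 576, 367 and 466 CPM at D5 and at 599, 660 and 656 CPM at D10. D5 replicate 1 lay just under the lowest control, and D10 overlapped the controls. The log2 change was -0.61 ± 0.17 at D5 (adjusted p = 0.0182) and -0.17 ± 0.17 at D10 (adjusted p = 0.562). The D5 call was lost with whole cord in the fit (adjusted p = 0.126) and without control replicate 3 (0.0560), control replicate 4 (0.0524), D5 replicate 2 (0.0804) or D5 replicate 3 (0.0708).
Omd, a bone matrix protein that also binds integrins, stood at 13.2, 15.1 and 13.9 CPM in sorted control, at 8.22, 5.24 and 3.95 CPM at D5 and at 4.24, 7.70 and 8.23 CPM at D10. Every EAE library lay under every control, at 30 to 80 counts each. The log2 change was -1.27 ± 0.34 at D5 (adjusted p = 0.0174) and -1.06 ± 0.34 at D10 (adjusted p = 0.0557, not called). The D5 call was lost without D5 replicate 2 (0.0620) or D5 replicate 3 (0.0849). At D10, DESeq2 (0.0220), limma voom (0.0313), library totals (0.0434) and no filter (0.0481) called it.

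Ogn and Podn belong to other branches of the family. Ogn, first known from bone and thought to regulate fibril width, stood at 239, 258 and 215 CPM in sorted control, at 105, 93.7 and 50.4 CPM at D5 and at 137, 152 and 90.0 CPM at D10. All EAE libraries lay below the controls, and D10 replicate 3 lay among the D5 libraries. The log2 change was -1.52 ± 0.25 at D5 (adjusted p = 0.00123) and -0.91 ± 0.25 at D10 (adjusted p = 0.0301). The D10 call was lost with whole cord in the fit (adjusted p = 0.177), without any single control (0.0588 to 0.0757), without D10 replicate 1 (0.0559) and without D10 replicate 3 (0.111).
Podn, first described in kidney glomeruli and known to restrain smooth muscle growth, stood at 225, 249 and 251 CPM in sorted control, at 58.0, 66.2 and 44.5 CPM at D5 and at 68.6, 91.2 and 48.9 CPM at D10. The EAE libraries formed a range well under the controls. Podn fell 4.30-fold at D5 (log2 -2.10 ± 0.22, adjusted p = 7.72e-05) and 3.47-fold at D10 (log2 -1.79 ± 0.21, adjusted p = 0.000436).

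D10 was also compared with D5, which asks whether the later cells differ from the earlier ones. None of the 9 genes was called by the edgeR test, where 0.131% of all tested genes (21) were called. An unadjusted p under 0.05 was reached by 5 of the 9 and by 8.47% of all tested genes, and groups did not overlap for 2 (Fmod and Lum, both higher at D10), against 14.1%. Fmod had a log2 difference of 1.56 ± 0.32 (adjusted p = 0.125), Prelp of 0.85 ± 0.26 (0.345), Lum of 0.44 ± 0.17 (0.478) and Aspn of -1.18 ± 0.40 (0.427).
Fmod was called by DESeq2 (adjusted p = 0.000206), by edgeR with no filter (7.39e-06) and by edgeR without D10 replicate 3 (log2 1.87, adjusted p = 0.00883). Prelp was called with no filter (0.0138) and without D10 replicate 3 (log2 1.14, adjusted p = 0.0209), and limma voom called neither. The values of Dcn, Bgn, Omd and Podn differed between D10 and D5 by log2 0.11, -0.22, 0.21 and 0.31, with SEs of 0.19, 0.22, 0.35 and 0.21. That these missed the threshold does not show that they were alike.

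**Figure D5:**
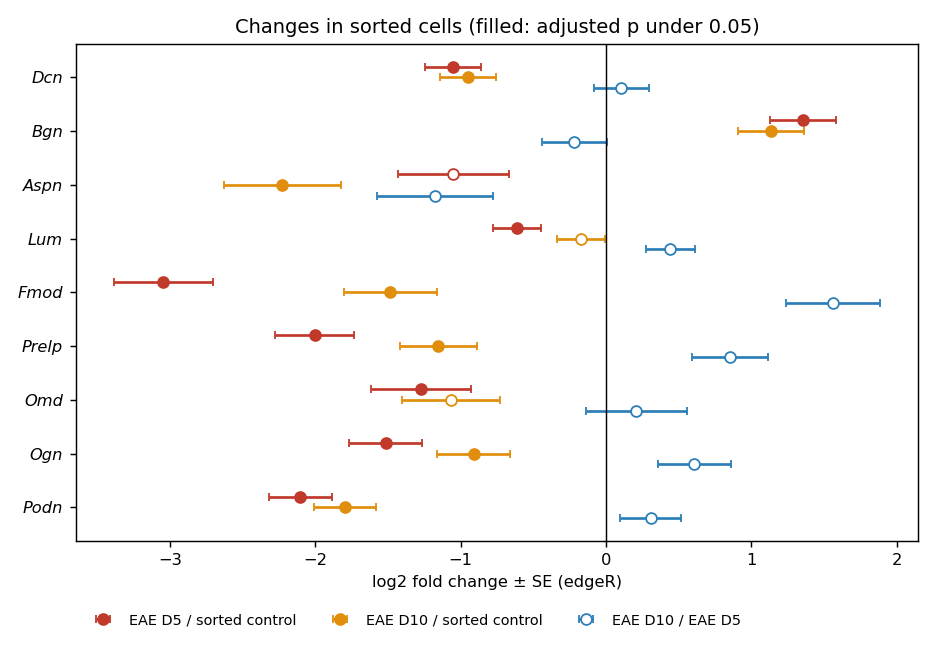
Log2 fold change ± SE (x axis, edgeR) of each gene (y axis) for D5 over sorted control, D10 over sorted control and D10 over D5. Filled points passed at an adjusted p under 0.05. Bgn lies right of 0 against the controls (1.35 and 1.13), Fmod lies farthest left at D5 (-3.04), and no D10 over D5 point is filled.

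Markers of several cell types, fibroblasts included, were also followed in the sorted libraries. Their counts of called genes stand against 13.2% higher and 10.7% lower of all tested genes at D5. At D10 these shares were 8.38% and 4.99%. The 12 myeloid markers summed to 37.3 to 70.5 CPM in sorted control, 148 to 291 at D5 and 191 to 471 at D10, and 10 and 9 of them rose. The 10 lymphoid markers summed to 2.17 to 10.7 CPM in sorted control, with Trac and Ms4a1 at 0, 66.5 to 138 at D5 and 31.9 to 45.9 at D10, and 6 of the 8 tested rose at each time, while the B cell gene Cd79a fell at D5. The 6 Schwann cell markers in the table summed to 286 to 714 CPM in sorted control, 96.0 to 218 at D5 and 185 to 282 at D10, which followed Ngfr (log2 -2.83 and -2.14, both called). The median log2 change of that list was 0.67 at D5 and 1.29 at D10, with Pmp2 higher at both times and Sox10 at D10.
Fibroblast markers summed to 33118 to 46713 CPM at D5 and 29663 to 66501 at D10, above every control, and most of that sum was Col1a1, Col1a2 and Col3a1. Of those 12 markers, 5 rose and 4 fell at D5 (median log2 0.01), where Gsn, Slc6a13, Tbx18 and Pdgfra were the ones that fell, and at D10 5 rose and Gsn fell. The 10 leptomeningeal markers had sums of 1473 to 1683 CPM at D5 and 1611 to 1943 at D10. Of these, Slc6a13, Slc47a1, Bmp5 and Foxp2 fell and Aldh1a2 rose at D5 (median log2 -0.61), and at D10 the last 3 of those that fell and Aldh1a2 were called in the same directions (-0.32).
Endothelial markers summed to 275 to 328 CPM in sorted control, 513 to 597 at D5 and 421 to 479 at D10, mostly Cdh5, which was the one marker of the 9 tested that rose, while Esam fell at D10. Astrocyte markers summed to 521 to 587 CPM in sorted control, 625 to 671 at D5 and 598 to 784 at D10, and of 8, 3 rose and 2 fell at D5 and 3 rose and 1 fell at D10. The part of these cells in the changes of the 9 genes was not tested.

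Close relatives of the family were also followed. Of 10 further genes, 7 were tested, and at D5 2 rose and 2 fell. Of all tested genes, 13.2% were called higher and 10.7% lower at D5. Tsku, an inhibitor of BMP signals, rose from 14.1 ± 1.68 to 39.98 ± 1.98 CPM (log2 1.5 ± 0.19, adjusted p = 0.000199) and the podocan-like gene Podnl1 from 4.66 ± 1.35 to 12.5 ± 3.90 CPM (1.42 ± 0.34, 0.00989). Ecm2, the neighbour of Aspn, fell from 147 ± 26.3 to 50.6 ± 12.7 CPM (-1.54 ± 0.24, adjusted p = 0.000744). Optc, known from the vitreous of the eye and a neighbour of Prelp, fell from 4.23 ± 0.389 to 0.561 ± 0.217 CPM (-2.89 ± 0.62, 0.00543). It held only 3, 4 and 6 counts in the D5 libraries and 13, 9 and 7 in the D10 libraries. Chad, Chadl and Nyx did not pass. At D10, Tsku was higher (1.32 ± 0.19, adjusted p = 0.00117), Ecm2 (-1.07 ± 0.23, 0.0105) and Optc (-2.0 ± 0.58, 0.0389) were lower, and Podnl1 gave 0.40 ± 0.34 (0.503). Of all tested genes, 8.38% were called higher and 4.99% lower at D10. Kera had no count in any library.

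The collagens that carry these proteins went another way than most of the 9 genes. Of 12 collagen chains, 7 rose and none fell at D5 (median log2 1.00) and 6 rose at D10 (0.67), where 13.2% and 8.38% of all tested genes were called higher. Col1a1, the most abundant, rose by log2 1.16 ± 0.30 at D5 (adjusted p = 0.0148), Col14a1 by 1.77 ± 0.38 (0.00535) and Col5a2 by 1.54 ± 0.28 (0.00198). Dcn stood at 0.979 ± 0.326 CPM per CPM of Col1a1 in sorted control, 0.206 ± 0.0538 at D5 and 0.216 ± 0.146 at D10 (SD), with every EAE library under every control. Col1a1 also drives the reporter on which cells were sorted.

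Among enzymes that build the sugar chains, the share called at D5 was near that of all tested genes (23.9%). Of 22 genes for chondroitin and dermatan sulphate, 3 rose and 3 fell at D5 (median log2 0.03) and 4 rose at D10. Chst15, a sulphotransferase, rose by log2 1.08 ± 0.21 at D5 (adjusted p = 0.00296), and Chsy1, which extends the chain, by 0.94 ± 0.14 (0.000532). Of 8 tested genes for keratan sulphate, 2 rose and none fell at D5 (median log2 0.43). These were Chst2, which adds sulphate (1.78 ± 0.16, adjusted p = 4.87e-05), and B4galt1, a galactosyltransferase (0.80 ± 0.21, 0.0171).

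Against the same 13.2% called higher and 10.7% called lower of all tested genes at D5 stand the receptors, ligands and proteases. Among 12 receptors reported for soluble decorin, biglycan or lumican, 4 rose and 3 fell at D5 (median log2 0.76) and 4 rose and 1 fell at D10. Cd44 rose by log2 2.35 ± 0.26 (adjusted p = 0.000122) and Itga2 by 1.95 ± 0.61 (0.0350) at D5, while Lrp1, an endocytic receptor for decorin and the most abundant of them, fell by 1.01 ± 0.12 (0.000169). Of 6 genes for TGF-beta ligands and receptors, 3 rose and 1 fell at D5. Tgfb1 rose by log2 1.23 ± 0.24 (adjusted p = 0.00302), and Tgfbr3, a co-receptor and the most abundant of the list, fell by 1.19 ± 0.19 (0.00103). Of 13 proteases and their enhancers, 5 rose and 1 fell at D5 (median log2 0.47). Mmp12 had no count in sorted control and stood at 6.86 ± 2.97 CPM at D5, and Mmp3 stood at 0.245 ± 0.424 and 42.6 ± 15.5 CPM. The most abundant was Mmp2, at 622 ± 104 and 480 ± 17.7 CPM (log2 -0.37 ± 0.14, adjusted p = 0.0746, not called). In D10 against D5, no gene of these 6 lists was called.

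Other genes with the most similar course were named for each gene by the smallest root mean square difference of centred log2 CPM over the 9 sorted libraries, among 9414 genes of at least 10 CPM. The libraries are shared by all genes, and the measure is a description. Prelp had the nearest match of all, Aff3 (0.0549), followed by Cacna1g (0.132) and Kl (0.171). Podn was nearest to Abi3bp (0.137), Ogn to Sox9 (0.118) and Dcn to Fbxw7 (0.131) and Dcbld2 (0.131). Bgn was nearest to Slc7a2 (0.115), Ccdc80 (0.132) and Igfbp7 (0.138). Lum was nearest to Dpy19l3 (0.110), Omd to Nrp2 (0.181) and Fmod to Clec3b (0.257), Edn3 (0.310) and Hpca (0.329). Aspn was nearest to Aoc3 (0.229), Akap6 (0.249) and Acta2 (0.306), the last of which is on the mural list. Between the 9 genes themselves, Dcn and Omd were closest (0.244), then Ogn and Prelp (0.25), and Bgn was the farthest from any other, at 0.867 from Lum.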

How the data were processed

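RNA was sequenced as 100-base read pairs on a HiSeq4000, per the labels' protocols. The submitters' processing notes list build mm9, HTSeq 0.6.1, SAMtools 0.1.19, Bowtie2 2.2.1, TopHat2 2.0.11 and DESeq2, in no stated order. Not given in the sources used here are the annotation and the strand setting. The authors deposited raw counts per gene and CPM, per the file headers, and only the counts were used. Sorted groups were fitted together (9 libraries), and sorted control and whole cord apart (5 libraries), with edgeR 4.0.16 (R 4.3.3), TMM scaling and the default filter by group, by the quasi-likelihood test with Benjamini-Hochberg adjustment over all tested genes. Calls were made below an adjusted p of 0.05. CPM is TMM-scaled within each fit, and SEs derive from the test statistic. In the text, p-values in brackets are adjusted.

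Alternatives were other scalings, no filter, DESeq2 1.42.0, limma voom 3.58.1, other fits, a replicate block and leaving out each library. Named genes were the 9, their tested relatives, 2 called genes of largest change at D5 and the most abundant of each list, the nearest genes by course, and markers; not all are printed. The members and lists were chosen with earlier results of these data known. Totals ran from 7123291 to 12238751 counts. The p-values measure the spread between pools of cords, or between single cords.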

Additional observations from a re-analysis of the deposited data

How the results depend on the processing

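All 9 genes were called higher in sorted control than in whole cord under every alternative that was run, without any 1 library included. Of 522 values of the 9 genes over 36 comparisons by gene, 488 kept their direction and their side of the threshold, 16 lost the call, 14 gained it and 4 reversed. The 4 were small D10 minus D5 values that were not called: leaving out single libraries gave log2 values of -0.090 to 0.31 for Dcn, below 0 without D5 replicate 3 (-0.0064) or D10 replicate 2, of -0.41 to 0.038 for Bgn, above 0 without D10 replicate 2, and of -0.0090 to 0.56 for Omd, below 0 without D5 replicate 3. For D10 against D5, where edgeR called none of the 9, no filter gave 2, DESeq2 1 and the replicate block 1 (Fmod, adjusted p = 0.0459), and leaving out single libraries gave 0 to 2. The count of all genes called in that comparison, 21, was 265 with no filter, 182 with DESeq2, 33 with limma voom and 3 with only the 2 compared groups, and 1 to 218 when single libraries were left out, the highest without D10 replicate 3. Leaving out single libraries gave 5973 to 10054 of all genes for sorted control against whole cord (9208 in full), 2446 to 3588 for D5 (3817) and 1045 to 2031 for D10 (2136), the lowest without whole cord replicate 1, D5 replicate 3 and D10 replicate 3. Of the 9 genes, it gave 6 to 8 at D5 and 6 to 7 at D10. With whole cord in the fit 7 and 5 were called. The cause of these differences was not tested.

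Deviations of same-numbered libraries had correlations of -0.11 to 0.18 in 7 pairs, 2 of them over 0.1. The 20 pairs with different numbers gave -0.21 to 0.18, 3 of them over 0.1. With so few libraries per group, these overlapping ranges cannot decide what the replicate numbers stand for. With the replicate block, 6 of the 9 genes were called at D5, with Lum (adjusted p = 0.0960) and Omd (0.0747) lost, and 7 at D10. Library totals alone moved the median of all genes between sorted control and whole cord from 0.04 to 0.32 on the log2 scale. Low counts limit Omd, Aspn and the related gene Optc, and Omd, Lum, Ogn and Podn in whole cord.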
